A study of Mus musculus with 8 samples.

Results

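Genes that mark the resident macrophages of the liver, called Kupffer cells, and genes carried by macrophages in general or by recruited macrophages were followed across wild-type and Dicer1-deficient mouse liver, with and without a mutagen. The 10 genes were chosen by name from all genes on the array: Clec4f, Cd5l, Timd4, Vsig4 and Marco for resident Kupffer cells, and Adgre1, Cd68, Lyz2, Csf1r and Trem2 for genes shared by macrophages or raised in recruited ones. They were 10 of the 27670 genes on the array, read by 15 probes under current or older names (Emr1 for Adgre1, Lyzs for Lyz2). All 10 passed the filter on dim probes, which left 18153 genes, and for each gene the brightest probe was above background on all 8 arrays.

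Total liver RNA of C57BL/6 mice, 6 months old per the labels, was measured in 4 groups on one-colour Agilent arrays, 2 arrays a group. Albumin-Cre;Dicer1loxP/loxP mice, in which the albumin promoter drives Cre in hepatocytes, are the knockout (KO). Their Dicer1loxP/loxP littermates, which carry the floxed alleles without Cre, are called wild type (WT). Each genotype was injected once into the abdominal cavity with N-ethyl-N-nitrosourea (ENU), a mutagen that alkylates DNA, at 120 mg/kg, or with its solvent dimethylsulfoxide (vehicle), both at 2 ml/kg. Liver was taken 15 days after ENU, and the labels give no day for the vehicle mice. Dicer1 encodes the enzyme that cuts microRNA precursors, and the deletion is driven in hepatocytes, not in the macrophages whose genes are described here. How many mice an RNA sample pools is not stated in the labels.

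Kupffer cells line the liver sinusoids and clear bacteria, spent red cells and debris from the portal blood. They are seeded before birth and renew themselves, and they need signals from neighbouring liver cells to keep their gene programme. When the tissue is injured, monocytes enter from the blood, become macrophages and may later take on Kupffer cell genes. In scarred or fatty liver, macrophages that carry the lipid receptor Trem2 gather beside dying hepatocytes and scar.

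Arrays a and b of a group differed by a median absolute standardised difference of 0.669 to 0.844 over 156 to 181 repeatedly spotted probes, where spot noise alone gives 0.706, and arrays of different groups by 10.7 to 26.7. They were therefore averaged and counted as 1 RNA sample a group. A comparison of 1 group with another has no replicate check. Levels are log2 signal over the array's 75th percentile signal, so a level of 0 equals that percentile. The words rose and fell are kept for genes called at an adjusted p under 0.05 by a limma fit of genotype plus treatment to the 4 RNA samples, which leaves 1 residual degree of freedom. Its errors start from how far the KO minus WT difference after ENU departs from that on vehicle. They are drawn by limma towards a spread shared over all genes, and they hold no other measure of spread. Where the 2 differences are near equal, as for Vsig4 (0.44 and 0.46, SE 0.180), the error is mostly that shared spread. KO arrays took positions 1 and 2 of each slide and WT arrays 3 and 4, which means that genotype and slide position cannot be told apart. The 75th percentile signal itself was 437 to 524 on WT arrays and 629 to 681 on KO arrays. The 2 Dicer1 probes read lower in KO, by log2 differences of -2.46 and -0.50 on vehicle and -1.51 and -0.25 after ENU. Mice are labelled female, but 4 of 4 Y-linked genes looked at were well above background on all 8 arrays.

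Genes shared by macrophages or raised in recruited ones were higher in KO liver, while 4 of the 5 resident Kupffer cell genes differed by less than 2-fold in each treatment. That fold does not part the groups: Adgre1 on vehicle (1.93-fold) and Cd68 after ENU (1.97-fold) also lay below it. With quantile normalization the resident genes Cd5l (2.10-fold on vehicle, 2.54-fold after ENU) and Clec4f (2.53-fold after ENU) passed it. Marco, Adgre1, Cd68, Lyz2, Csf1r and Trem2, 6 of the 10 genes, rose in KO and none fell. No gene's average difference was below 0, although that of Timd4 was in 3 of the alternative settings. Across the whole array, 16.9% of the genes tested rose and 15.3% fell (3062 and 2778 genes, against 2737 and 4884 with median scaling and 2399 and 4172 with normexp). All 5 of the shared or recruited genes rose, and 1 of the 5 resident genes, Marco. The median KO minus WT difference over the 10 genes was 1.06 on vehicle and 1.10 after ENU, against -0.14 and -0.10 over all genes tested. By group, the 5 resident genes had medians of 0.44 and 0.71, and the other 5 had 1.65 and 1.28. In whole liver, a change in the number of cells of a type and a change in RNA per cell cannot be told apart.

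Promoters are shown for the genes at the ends of this range: Trem2, with the largest difference, Marco, the resident gene that rose, and Clec4f, the gene used to define Kupffer cells, with the smallest difference on vehicle. Each runs from 250 bases before to 50 bases after the RefSeq start site, on build GRCm38.p6, in the direction of the gene. Capitals mark matches, on either strand, to GAGGAAG, a core bound by the macrophage factor PU.1, and to CATGTG or CACGTG, the E-box of the MITF and TFE factors, which act on lysosomal genes. The Trem2 promoter is chr17:48346151-48346450 on the plus strand, Marco is chr1:120504975-120505274 on the minus strand and Clec4f is chr6:83656067-83656366 on the minus strand.
Trem2: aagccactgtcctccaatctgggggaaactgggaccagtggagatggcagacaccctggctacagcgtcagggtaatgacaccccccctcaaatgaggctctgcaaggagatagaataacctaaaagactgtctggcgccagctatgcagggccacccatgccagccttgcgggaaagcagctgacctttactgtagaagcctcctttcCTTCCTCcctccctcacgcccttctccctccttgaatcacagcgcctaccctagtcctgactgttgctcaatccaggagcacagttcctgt
Marco: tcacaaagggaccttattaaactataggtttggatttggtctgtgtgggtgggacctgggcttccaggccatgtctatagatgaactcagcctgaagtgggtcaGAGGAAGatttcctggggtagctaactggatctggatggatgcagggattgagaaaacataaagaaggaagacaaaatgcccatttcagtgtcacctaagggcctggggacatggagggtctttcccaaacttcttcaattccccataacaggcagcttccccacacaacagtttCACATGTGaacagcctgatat
Clec4f: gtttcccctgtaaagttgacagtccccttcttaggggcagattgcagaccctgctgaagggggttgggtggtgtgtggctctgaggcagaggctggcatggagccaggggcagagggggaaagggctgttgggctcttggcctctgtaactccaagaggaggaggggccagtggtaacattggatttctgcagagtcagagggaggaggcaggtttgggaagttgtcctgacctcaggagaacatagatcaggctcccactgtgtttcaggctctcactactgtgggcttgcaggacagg
In Trem2 the PU.1 core lay on the opposite strand, at positions -41 to -35 from the start. Marco held it on its own strand, at positions -146 to -140 from the start, and held 2 E-box matches that overlap each other, at positions 30 to 37. Clec4f held neither. Promoters of 8 of the 10 genes were read, all but those of Adgre1 and Csf1r. Of these 8, 3 held the PU.1 core (Cd5l is the third), as did 13.6% of all 32851 promoters. The E-box was in 2 (Timd4 and Marco) and in 20.4% of all promoters. A TATAAA box was in 0 of the 8 and in 13.6% of all. These are matches of letters, not sites shown to be bound.

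**Figure D1:**
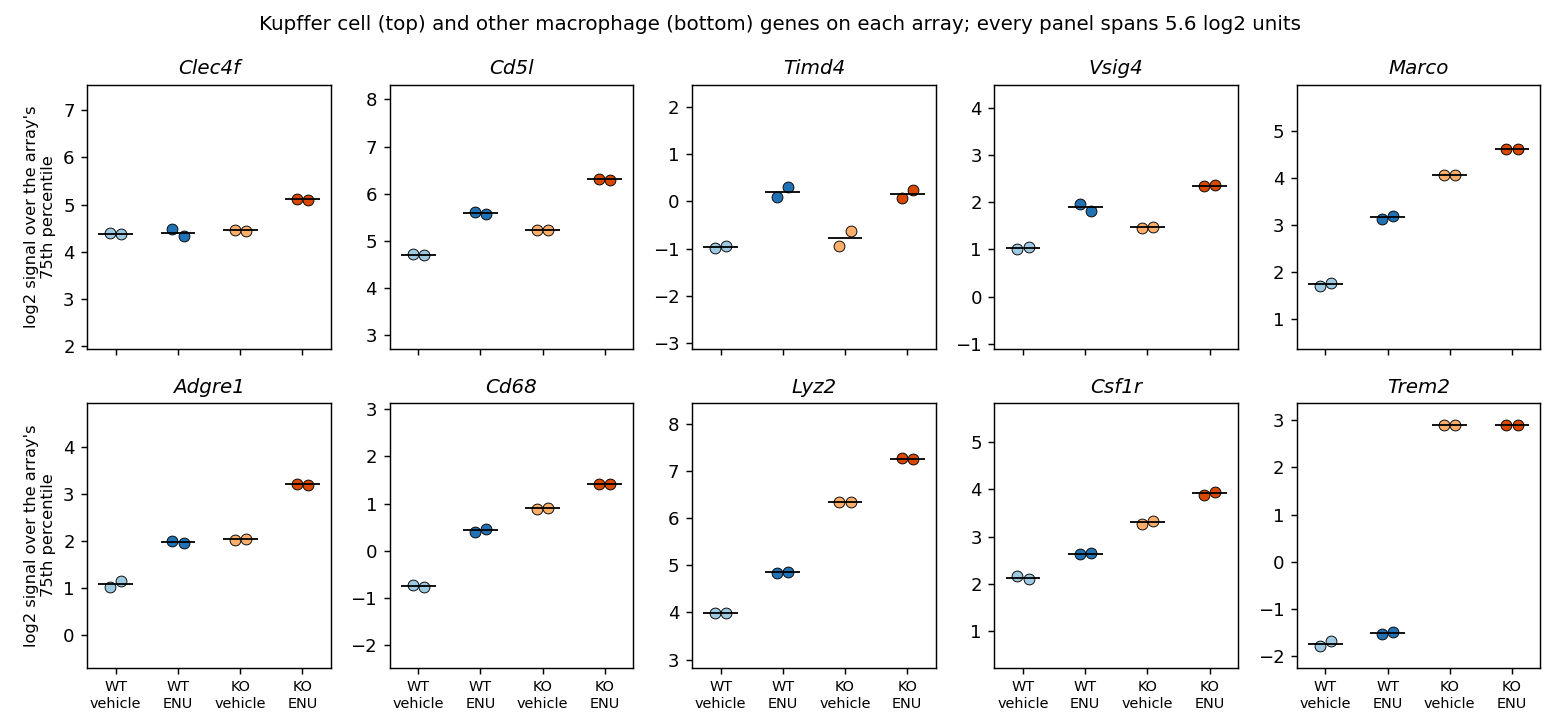
Level of each of the 10 genes (log2 signal over the array's 75th percentile, vertical axis) on the 2 arrays of each group (points) with their mean (line). Trem2 lies between -1.79 and -1.49 on the 4 WT arrays and between 2.89 and 2.90 on the 4 KO arrays, while Clec4f stays between 4.35 and 4.47 on all arrays but the 2 of KO after ENU.

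Trem2, a receptor for lipids and lipoproteins on macrophages, had the largest difference of the 10 genes. Its level was -1.79 and -1.67 on the 2 WT vehicle arrays, -1.52 and -1.49 after ENU in WT, 2.89 and 2.90 in KO on vehicle, and 2.90 on both KO arrays after ENU. All KO arrays lay above all WT arrays, with no overlap. Trem2 in KO exceeded WT by 24.7-fold on vehicle and by 21.2-fold after ENU, and it rose by 4.51 on the log2 scale over the 4 samples (SE 0.189, adjusted p = 0.00986). A second Trem2 probe gave folds of 15.6 on vehicle and 15.5 after ENU. Trem2 RNA was above background in WT liver on all 4 arrays, so these folds are measured and not bounds. Their size depended on the background correction: with normexp the first probe gave 17.0-fold on vehicle and 15.8-fold after ENU.

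Lyz2 encodes lysozyme, which breaks bacterial cell walls and is made by monocytes, macrophages and neutrophils. On vehicle its level was 3.99 on both WT arrays and 6.33 on both KO arrays. After ENU it was 4.83 and 4.87 in WT and 7.27 and 7.25 in KO. The 4 groups stood apart in the order WT vehicle, WT ENU, KO vehicle and KO ENU. The fold of KO over WT for Lyz2 was 5.08 on vehicle and 5.31 after ENU, and the gene rose by 2.38 (SE 0.181, adjusted p = 0.0104). With quantile normalization the latter was 8.28. Its second probe gave log2 differences of 2.48 and 2.55. The near-identical gene Lyz1 had 1 probe, whose listed matches include the Lyz2 transcript, and it read 4.96-fold and 5.03-fold higher, so reads of the 2 lysozyme genes are uncertain as to which gene they come from.

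Cd68 encodes a lysosomal glycoprotein of phagocytes. The WT vehicle arrays read -0.73 and -0.77, the WT ENU arrays 0.40 and 0.46, the KO vehicle arrays 0.89 and 0.90, and both KO ENU arrays 1.41. The groups again did not overlap and kept the order seen for Lyz2. KO liver had 3.13 times the WT signal of Cd68 on vehicle and 1.97 times after ENU, and Cd68 rose by 1.31 (SE 0.247, adjusted p = 0.0302).

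Csf1r is the receptor for the growth factors CSF1 and IL-34, on which macrophages depend for survival. Its level was 2.18 and 2.09 in WT on vehicle, 2.63 and 2.65 in WT after ENU, 3.28 and 3.34 in KO on vehicle, and 3.89 and 3.95 in KO after ENU. Csf1r was 2.25-fold and 2.43-fold higher in KO, and rose by 1.23 (SE 0.182, adjusted p = 0.0205). The other 2 Csf1r probes gave log2 differences of 1.37 and 1.05 on vehicle and 1.42 and 1.38 after ENU, so all 3 probes placed KO above WT.

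Adgre1 encodes F4/80, the surface protein most used to stain mouse macrophages. It read 1.02 and 1.16 in WT on vehicle, 1.99 and 1.96 in WT after ENU, 2.03 and 2.04 in KO on vehicle, and 3.21 and 3.19 in KO after ENU. WT after ENU and KO on vehicle lay close to each other, KO ENU above both and WT vehicle below. The KO signal was 1.93 times that of WT on vehicle and 2.33 times after ENU, and Adgre1 rose by 1.08 (SE 0.193, adjusted p = 0.0273). A second probe was above background on 5 of 8 arrays and gave 1.45 and 1.03 on the log2 scale.

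Among the resident genes, Marco, a scavenger receptor that binds bacteria and particles, was the one called. Its level was 1.72 and 1.77 in WT on vehicle, 3.14 and 3.18 in WT after ENU, 4.05 on both KO vehicle arrays, and 4.62 and 4.61 in KO after ENU. The fold between the genotypes was 4.95 on vehicle and 2.74 after ENU, and Marco rose by 1.88 (SE 0.282, adjusted p = 0.0208). The groups did not overlap.

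Clec4f encodes a lectin found on mouse Kupffer cells. Its level was 4.40 and 4.37 in WT on vehicle, 4.47 and 4.35 in WT after ENU, 4.46 and 4.45 in KO on vehicle, and 5.13 and 5.10 in KO after ENU. The last group stood above the other 3, which lay together. Clec4f in KO was 1.05 times WT on vehicle, a difference that turned to -0.16 on the log2 scale when arrays were scaled by their median, and 1.63 times WT after ENU, which became 2.53 times with quantile normalization. It was not called over the 4 samples (0.39, SE 0.242, adjusted p = 0.274).

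Cd5l, also known as AIM, is a secreted protein of tissue macrophages that blocks lipid synthesis and apoptosis. It read 4.73 and 4.69 in WT on vehicle, 5.62 and 5.57 in WT after ENU, 5.24 and 5.23 in KO on vehicle, and 6.32 and 6.30 in KO after ENU. KO arrays were above WT arrays in each treatment, by 1.43-fold on vehicle and 1.64-fold after ENU (2.54-fold with quantile normalization). The average difference of 0.62 (SE 0.187) did not pass the threshold (adjusted p = 0.0757), and it passed in 6 of the 17 alternative settings, with adjusted p from 5.59e-05 to 0.153.

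Vsig4 encodes a complement receptor that captures opsonised bacteria. Its level was 1.01 and 1.05 in WT on vehicle, 1.96 and 1.82 in WT after ENU, 1.46 and 1.48 in KO on vehicle, and 2.34 and 2.36 in KO after ENU. The groups did not overlap, with KO 1.36-fold and 1.37-fold higher, and the average difference of 0.45 (SE 0.180) was not called (adjusted p = 0.129). The arrays taken singly, with or without the letter as a replicate block, would have called it, but they count arrays of 1 RNA as replicates.

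Timd4 encodes a receptor for phosphatidylserine on apoptotic cells and marks long-lived Kupffer cells that have not been replaced by monocytes. Its level was -0.98 and -0.94 in WT on vehicle, 0.10 and 0.31 in WT after ENU, -0.94 and -0.62 in KO on vehicle, and 0.08 and 0.24 in KO after ENU. KO and WT arrays overlapped after ENU. The differences were 0.18 on vehicle and -0.05 after ENU, and the average of 0.07 (SE 0.189, adjusted p = 0.805) was not called. Its sign turned with the scaling: with median scaling the average was -0.14 and with normexp background correction it was -0.0043, and it was -0.013 without the second KO vehicle array.

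**Figure D2:**
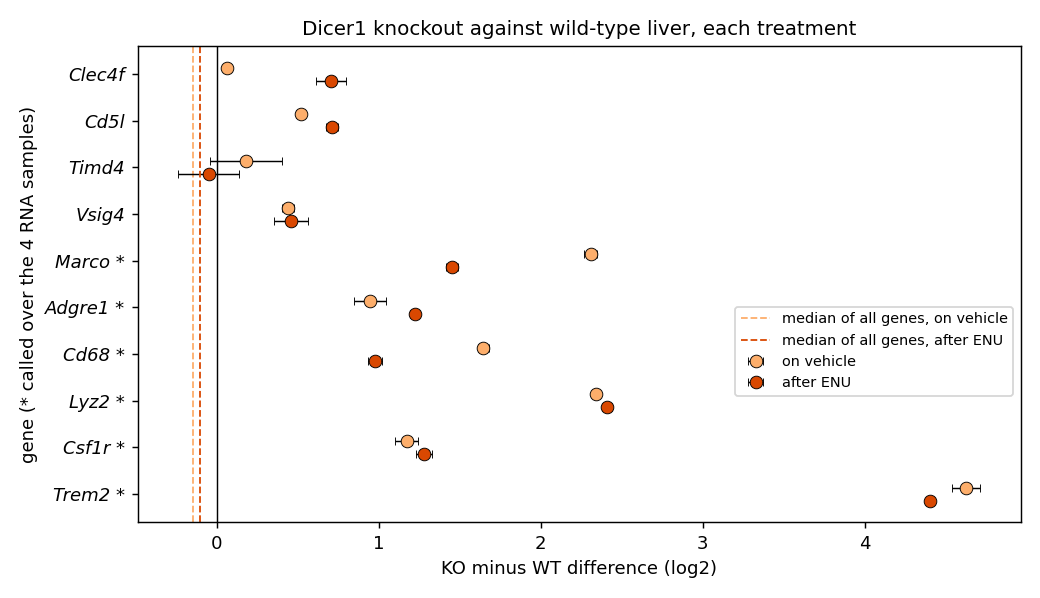
KO minus WT difference of each gene (log2, horizontal axis) on vehicle (light points) and after ENU (dark points), with bars for the combined SD of the 2 arrays of each group, which is technical spread. Dashed lines mark the median of all genes tested (-0.14 and -0.10), and the 6 starred genes rose.

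Read in folds, 5 of the 10 genes (Trem2, Lyz2, Marco, Cd68 and Csf1r) exceeded WT by 2-fold or more on vehicle, where 17.3% of all genes tested were. After ENU 5 genes (Trem2, Lyz2, Marco, Csf1r and Adgre1) passed that fold, where 16.2% of all genes did. Clec4f had the smallest KO minus WT difference on vehicle, so the other 9 genes exceed it there by the choice of reference. Set against Clec4f on the same array, the excess on vehicle was 4.56 for Trem2, 2.28 for Lyz2, 2.24 for Marco, 1.58 for Cd68 and 1.10 for Csf1r. It was 0.88 for Adgre1, 0.45 for Cd5l, 0.37 for Vsig4 and 0.11 for Timd4. The Timd4 excess was smaller than the SD of its KO minus WT difference between the a and b arrays (0.198). After ENU the excess over Clec4f was 3.70 for Trem2, 1.70 for Lyz2, 0.75 for Marco, 0.58 for Csf1r, 0.52 for Adgre1 and 0.27 for Cd68. Cd5l, at 0.01, differed as Clec4f did, and Vsig4 and Timd4 were lower relative to it, by -0.25 and -0.75. The genotype difference was thus unequal among these genes within the same arrays.

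All 4 ENU arrays lay on 1 slide and all 4 vehicle arrays on the other, so ENU and slide cannot be told apart. In WT, the ENU arrays were higher than the vehicle arrays for 10 of the 10 genes by their means, with a median log2 difference of 0.87, where the median of all genes was -0.04. Marco differed most (1.42), followed by Cd68 (1.18) and Timd4 (1.17), which were the 3 genes past 2-fold, where 7.18% of all genes were. Clec4f (0.02) and Trem2 (0.23) differed least, and the Clec4f arrays overlapped. In KO the median was 0.77, where that of all genes was -0.06. Adgre1 (1.16) and Cd5l (1.08) passed 2-fold in KO, where 4.34% of all genes did, and Trem2 (0.01) did not differ beyond its arrays.

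In limma's fit over the 4 RNA samples no gene of the whole array was called for ENU, while 3986 genes, 8 of the 10 here among them, had an unadjusted p under 0.05. Vsig4 (0.86 in WT and 0.88 in KO), Lyz2 (0.86 and 0.92) and Csf1r (0.50 and 0.61) had ENU differences of like size in both genotypes. Clec4f differed in KO alone by its means (0.02 and 0.66), while Marco (1.42 and 0.56) and Cd68 (1.18 and 0.51) differed more in WT. With 1 RNA sample a group the difference between these differences has no test.

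**Figure D3:**
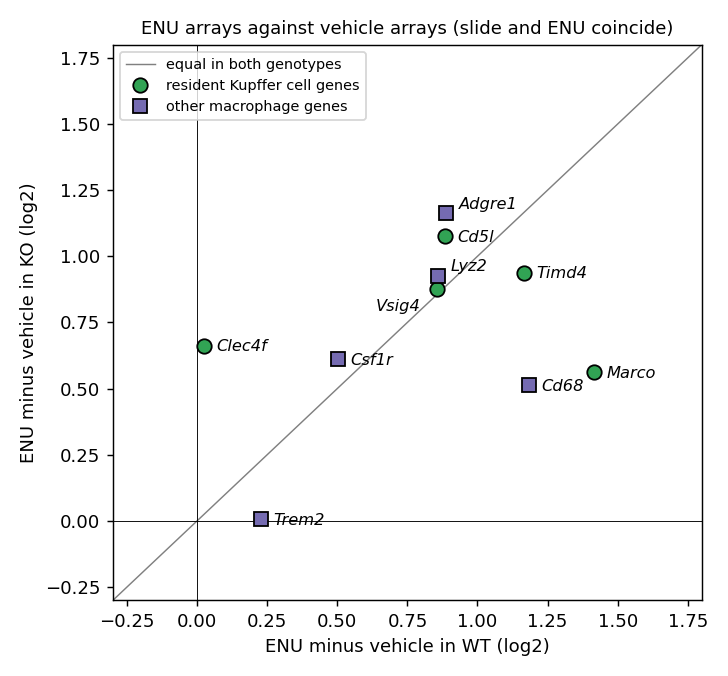
ENU minus vehicle difference of each gene (log2) in WT (horizontal axis) and in KO (vertical axis), for resident Kupffer cell genes (circles) and other macrophage genes (squares), with a line where both are equal. Clec4f lies above the line at 0.02 and 0.66, and Marco and Cd68 lie below it.

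Other Kupffer cell genes were described from a list of 20, all tested. Of these 4 rose, a share near the 16.9% of all genes, and 1 fell, with median differences of 0.19 on vehicle and 0.23 after ENU. The counts were not stable: 2 rose and 1 fell when any 1 of the 4 ENU arrays was left out, and 2 rose and 4 fell with median scaling. Vcam1, an adhesion protein also made by endothelium, rose (2.89-fold and 5.15-fold higher on vehicle and after ENU, adjusted p = 0.0193), as did Axl, a receptor for apoptotic cells (2.71-fold and 2.79-fold, adjusted p = 0.0158). Il18bp, an inhibitor of interleukin-18, and Slc16a9, a transporter, were the other 2. C6, a complement component, fell (4.32-fold and 10.8-fold lower, adjusted p = 0.0183). Cd163, the haemoglobin scavenger receptor, was 1.53-fold and 2.39-fold lower but not called (adjusted p = 0.056), although it was with normexp and with median scaling. Folr2, Id3, Mrc1 and Fcna, chosen here after their values were seen, differed by less than 1.5-fold in each treatment. They do not stand for the list: in both treatments 10 of the 20 genes were higher in KO and 8 lower. After ENU 3 were higher and 5 lower by 2-fold or more, against 2 and 1 on vehicle. Among those 5, log2 differences on vehicle and after ENU were -0.35 and -1.01 for Nr1h3 and 0.84 and -1.23 for Hmox1. The list's summed signal, weighted to the brightest genes, was 122 to 123 in WT and 105 to 106 in KO on vehicle. After ENU it was 136 to 137 in WT and 114 in KO.

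Most genes of recruited monocytes were higher by a wider margin. Of 18 listed, 16 were tested, 13 rose and 1 fell, with median differences of 2.05 and 2.06, or 1.61 and 1.73 with dim genes at their bound. Where no WT array held the gene above background, the fold is a lower bound for this signal and scaling. Cx3cr1, the fractalkine receptor, exceeded WT by at least 15.9-fold on vehicle and by 14.2-fold after ENU (adjusted p = 0.0135). Ccr2, the receptor that draws monocytes from the marrow, was at least 12.6-fold and 8.35-fold higher (adjusted p = 0.0105). Chil3, a secreted protein of monocytes and neutrophils, was 13.2-fold and 11.2-fold higher (adjusted p = 0.0101), and F13a1, a clotting factor subunit, at least 9.89-fold and at least 5.98-fold (adjusted p = 0.0249). These sizes depended on the background correction: with normexp they were 5.87 and 5.93 for Cx3cr1, 4.07 and 4.37 for Ccr2, 6.85 and 7.17 for Chil3 and 4.09 and 1.98 for F13a1, all still called. Msrb1, a selenoprotein that hepatocytes also express, was the gene that fell, a call lost with quantile normalization. In both treatments 14 of the 16 were higher in KO and 2 lower. The summed signal, which is weighted to the brightest genes, was lower in KO. It was 973 to 1014 in WT and 658 to 696 in KO on vehicle, and 804 to 817 and 467 to 469 after ENU.

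Among 20 genes of the lipid-associated macrophage programme to which Trem2 belongs, 12 rose and 0 fell, with medians of 1.39 and 1.43 (the latter 1.23 with dim genes at their bound). Gpnmb, a lysosomal glycoprotein, was at least 4.89-fold and at least 10.7-fold higher (adjusted p = 0.00986; 2.47-fold and 3.97-fold with normexp). Spp1, or osteopontin, was 11.9-fold and 7.75-fold higher (adjusted p = 0.0102), and Cd63, a tetraspanin of late endosomes, 6.52-fold and 11.2-fold (adjusted p = 0.0109). The cathepsin genes Ctsb, Ctsd and Ctsl and the genes Apoe and Plin2, which hepatocytes also express, were not called. With normexp and with median scaling, 2 genes of the list fell. The summed signal of the list was lower in KO: 1519 to 1521 in WT and 1338 to 1371 in KO on vehicle. After ENU it was 1288 to 1324 and 1249 to 1257.

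Of 20 genes carried by most macrophages, 17 rose and 0 fell, with medians of 1.49 and 1.16. Ms4a7, a membrane protein of macrophages, was 16.7-fold and 20.0-fold higher (adjusted p = 0.00986; 7.48-fold and 11.1-fold with normexp). Coro1a, an actin regulator of leukocytes, was 6.72-fold and 3.91-fold higher (adjusted p = 0.0139), and Laptm5, a lysosomal protein of blood cells, 3.86-fold and 3.15-fold (adjusted p = 0.0134). Mertk, Msr1 and Fcgr2b were the 3 not called. The C1q genes C1qa, C1qb and C1qc, which Kupffer cells make, all rose, by 2.00-fold to 2.54-fold in each treatment.

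The ligands and partners of 2 of the receptors were read beside them. On the CSF1 receptor axis and among macrophage transcription factors, 9 of 19 tested genes rose and 1 fell, with medians of 1.02 and 0.68 (the former 0.87 with dim genes at their bound). Their summed signal was 114 to 115 in WT and 86.5 to 87.1 in KO on vehicle, and 64.3 to 65.5 and 69.1 to 69.5 after ENU. Csf1, a ligand of Csf1r, rose (3.93-fold and 2.75-fold higher, adjusted p = 0.0169), while the other ligand gene, Il34, had an average difference of 0.24 and was not called (adjusted p = 0.505). Csf3r, the neutrophil growth factor receptor, was 4.43-fold and 3.44-fold higher (adjusted p = 0.0128; 1.78-fold and 1.75-fold with normexp), and Inpp5d, which encodes the phosphatase SHIP1, 4.39-fold and 3.01-fold (adjusted p = 0.0156). Spi1, which encodes PU.1, was not above background in WT on vehicle, and its call (adjusted p = 0.0254) was lost with normexp and with quantile normalization. Cebpa, a factor of hepatocytes and myeloid cells, fell (1.80-fold and 1.94-fold lower, adjusted p = 0.0344). Its call was lost with quantile normalization, with no filter on dim probes and without WT ENU array b or KO ENU array b.

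Tyrobp, the adaptor through which Trem2 signals, rose together with 9 other genes of a list of 14 tested for that pathway, and 0 fell. The medians were 1.70 and 1.30, or 1.52 and 1.18 with dim genes at their bound. Tyrobp in KO was 3.23 times WT on vehicle and 2.53 times after ENU (adjusted p = 0.0175), and Syk, the kinase it recruits, 2.53-fold and 2.73-fold (adjusted p = 0.0171). Lat2, an adaptor of myeloid and B cells, was 5.72-fold and 6.58-fold higher (adjusted p = 0.0101; 1.56-fold and 1.81-fold with normexp). Plcg2, a phospholipase, was 3.64-fold and 2.65-fold higher (adjusted p = 0.0172) and Hcst, a second adaptor, 3.31-fold and 2.59-fold (adjusted p = 0.017; 2.17-fold and 2.05-fold with normexp). The Trem2 differences were thus several times those of its adaptor in both treatments, in the same 4 RNA samples.

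Attractants of monocytes and their receptors showed 13 of 15 tested genes that rose and 0 that fell, with medians of 1.86 and 1.68 (the former 1.71 with dim genes at their bound). Ccl2, the ligand of Ccr2, was at 49.6 times its WT level on vehicle and 11.1 times after ENU (adjusted p = 0.0162; 27.4-fold on vehicle with normexp). Cx3cl1, the ligand of Cx3cr1, was 19.3-fold and 17.1-fold higher (adjusted p = 0.00986; 10.1-fold and 11.1-fold with normexp). Cxcl10, an interferon-induced chemokine, was 10.4-fold and 5.90-fold higher (adjusted p = 0.0116). Ligand and receptor RNA were thus both higher for the pairs Ccl2 with Ccr2 and Cx3cl1 with Cx3cr1.

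**Figure D4:**
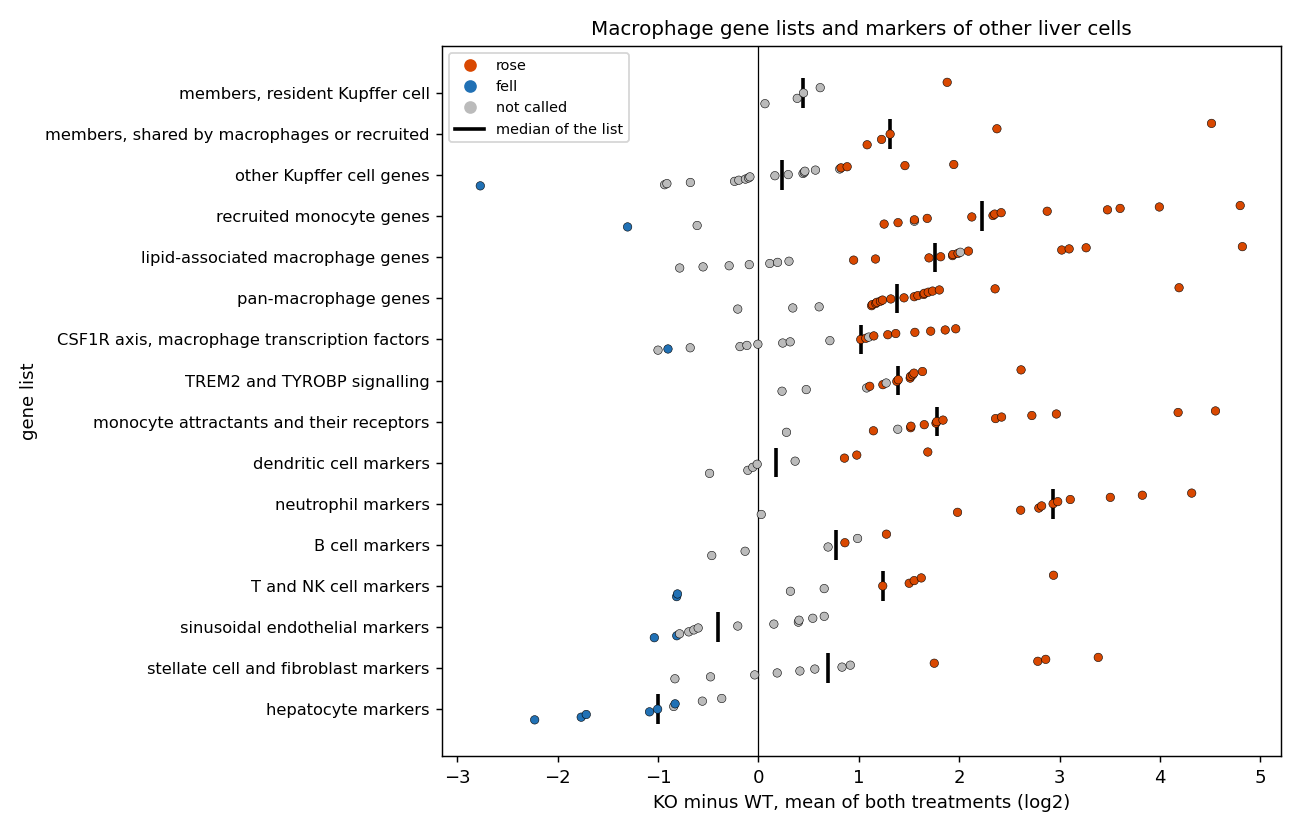
KO minus WT difference averaged over both treatments (log2, horizontal axis) of every tested gene in the lists (points, coloured by whether limma over the 4 RNA samples called the gene), with the median of each list (bar). Genes not above background in WT are drawn at their measured value. All 5 shared or recruited genes and 1 of 5 resident genes rose, beside 10 of 11 neutrophil markers.

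Markers of other liver cells moved with the same contrast. Of 11 tested neutrophil markers 10 rose and 0 fell (medians 2.96 and 2.92, or 2.73 and 2.69 with dim genes at their bound), led by Mpo (11.6-fold and 34.2-fold; 5.50-fold and 12.7-fold with normexp), Camp (9.60-fold and at least 15.4-fold; 3.20-fold and 4.36-fold with normexp) and Ngp (at least 7.45-fold and 13.7-fold; 2.60-fold and 3.80-fold with normexp). Their summed signal, in units of the array's 75th percentile, was 4.75 to 4.78 in WT on vehicle, 7.39 to 7.50 in WT after ENU, 35.9 to 36.5 in KO on vehicle and 49.7 to 50.3 in KO after ENU. In WT, 4 of the 11 were not above background in each treatment (Elane, Cxcr2 and Mmp8 in both, with Ngp on vehicle and Camp after ENU). Lyz2, Csf3r, Chil3 and Coro1a are also made by neutrophils, and the part of neutrophils in their differences was not tested.

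Lymphocyte and dendritic cell markers had smaller counts. Of 8 dendritic cell markers 3 rose (Clec10a, Ccr7 and Batf3, the last 2 not called with quantile normalization). Of 6 B cell markers 2 rose (Fcrla and Ms4a1, neither called with normexp). Of 9 T and NK cell markers 5 rose, led by Cd8a, Cd3d and Nkg7. The other way, 2 of the 9 fell, a share near that of all genes. Over all genes tested 16.9% rose and 15.3% fell. Leaving out WT ENU array a left 1 dendritic cell marker that rose, and leaving out any 1 array left 1 B cell marker. The 2 T and NK cell markers that fell became 1 without WT vehicle array a or WT ENU array b and 0 when any 1 of the other 6 arrays was left out. The summed signal of the dendritic cell markers was 1.42 to 1.44 in WT on vehicle and 1.89 to 1.90 in KO on vehicle, and 1.66 to 1.71 and 2.61 to 2.74 after ENU. For B cell markers it was 0.771 to 0.776 and 1.41 to 1.46 on vehicle and 1.49 to 1.51 and 2.23 to 2.25 after ENU. For T and NK cell markers it was 1.43 to 1.48 and 3.10 to 3.16 on vehicle and 2.39 to 2.59 and 5.22 to 5.28 after ENU. All 3 sums were higher in KO and on the ENU arrays, but not every marker was. In both treatments 3 of 8 dendritic cell, 4 of 6 B cell and 7 of 9 T and NK cell markers were higher in KO. Lower in both were 1, 2 and 2. The median KO minus WT differences were 0.43 and 0.30, 0.70 and 0.68, and 0.98 and 1.22. Those on vehicle were 0.03, 0.20 and 0.39 with dim genes at their bound. The median ENU minus vehicle difference of the dendritic cell markers was -0.03 in WT and 0.06 in KO.

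Markers of the cells that share the sinusoid with Kupffer cells, and of hepatocytes, differed by cell type. Of 12 sinusoidal endothelial markers 0 rose and 2 fell, a share near the 15.3% of all genes that fell, with medians of -0.37 and -0.41. The 2 were Dnase1l3 (adjusted p = 0.0266) and Lyve1 (adjusted p = 0.0488, not called with quantile normalization). The count that fell was 1 when any 1 array was left out and 6 with median scaling, and with normexp 2 rose and 5 fell. Of 12 stellate cell and fibroblast markers 4 rose, among them the collagen genes Col1a1 (log2 differences of 3.70 and 3.07) and Col3a1 (9.08-fold and 5.22-fold; 3.92-fold and 2.91-fold as the mean of its probes) and Lum (7.17-fold and 7.38-fold), with medians of 0.56 and 0.85. Of 9 hepatocyte markers 6 fell and 0 rose, with medians of -1.11 and -0.81, led by Tdo2 (3.58-fold and 6.14-fold lower), Asgr1 (2.84-fold and 4.07-fold) and Tat (3.75-fold and 2.88-fold). Without WT ENU array b, without KO ENU array b or with quantile normalization 3 hepatocyte markers fell, and with median scaling 8 did. The summed signal of the 9 was 2548 to 2584 in WT on vehicle, 2381 to 2496 in WT after ENU, and 1482 to 1588 on the 4 KO arrays. The part that a lower share of hepatocyte RNA had in the macrophage differences was not tested.

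Genes whose profile over the 4 group means, centred on its own mean, lay nearest to a macrophage gene were named for 4 of them, by the root mean square distance in log2 units. For Trem2 these were Sybu (0.110), Shisa2 (0.113) and Popdc2 (0.167), and 7 genes in all lay within 0.2. Marco had Arhgap44 (0.0483), Tubb6 (0.0502) and Jpt1 (0.0634), with 89 genes within 0.2, and Lyz2 had Incenp (0.0636), Hsd3b1 (0.0641) and Gtse1 (0.0652), with 80. Around Clec4f, whose profile was level but for a step in KO after ENU, lay Rabgap1 (0.0312), Hlx (0.0357) and Ubqln2 (0.0361), with 645 genes within 0.2. The distance uses 4 values a gene, 1 for each RNA sample. In WT on vehicle the levels of Sybu (-5.67), Shisa2 (-5.08), Popdc2 (-4.72) and Gtse1 (-5.70) were very dim. They lay below the dimmest probe well above background on each of those arrays (-3.83 and -4.48). Their distances therefore rest in part on background signal.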

How the data were processed

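The deposited intensity values were the processed signal of Agilent Feature Extraction, background-corrected by the program, version 10.7.1.1 per the file headers (10.5.1 per the submitters' processing notes). Each array held 45018 spots, of which 43379 were no controls and made 41174 probes. Probe names were updated through RefSeq (GRCm38.p6): 22951 matched by accession, 6659 by symbol, 3109 by synonym, and 8455 kept the file's name. Promoter sequences are RefSeq's.

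Each array's signal was divided by its own 75th percentile and logged to base 2, without outlier spots and after averaging the spots of a probe. A probe was kept where both arrays of any group read it well above background, and a gene was read by its brightest kept probe. Well above background were 54.7% to 69.3% of spots per array, and 0 were saturated. The number of arrays, merged to 4 RNA samples, limits the precision. A lower bound sets the brighter group against a floor on each dim array: the dimmest well-measured probe there, or the probe itself if brighter.

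Calls are from limma 3.58.1 in R 4.3.3 over all 18153 genes, with Benjamini-Hochberg adjustment at 0.05. The fit was tested on simulated data, where its false calls were a larger share of all calls than the threshold allows. Far fewer genes were changed there than are called here, so the share of false calls in these data is not known. Counts of calls are approximate. The genes and lists were chosen with earlier results of these data known. Named from each list are the 3 called genes with the largest mean absolute difference, and for 4 genes the 3 nearest profiles. Other genes were named for their role after their values were seen. Nothing in the labels says that samples came from separate mice. The p-values of the fit to the RNA samples hold no measured spread between mice or between samples of a group. They rest on how far the KO minus WT difference departs between treatments, and on a spread shared over all genes. Alternatives were normexp background correction (offset 50), median scaling, quantile normalization, 2 other filters on dim probes, the mean of a gene's probes, leaving out each array, a variance trend, and the 8 arrays unmerged with or without a replicate block.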

Additional observations from a re-analysis of the deposited data

How the results depend on the processing

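Adgre1, Cd68, Csf1r, Lyz2, Marco and Trem2 rose in all 17 alternatives of the fit, with adjusted p up to 0.0496 for Cd68. Of the 10 genes 6 to 9 were called higher and 0 lower: 7 with normexp, quantile normalization, the stricter filter or a variance trend, and 9 with 8 arrays unmerged. The letters a and b do not pair the samples (correlations of their deviations between groups were -0.02 to 0.108), and the fit with the replicate block called 8. The median KO minus WT difference on vehicle, 1.06, was 1.07 with normexp, 0.83 with median scaling, 1.27 with quantile normalization, 1.20 with the mean of all probes, and 1.04 to 1.08 leaving out each array. After ENU, 1.10 became 0.92 with median scaling, 1.43 with quantile normalization and 1.05 with the mean of probes. The median ENU difference in WT, 0.87, was 1.02 with the mean of probes, and that in KO, 0.77, was 0.75 with normexp, 0.90 with quantile normalization, 0.88 with the mean of probes and 0.72 to 0.77 leaving out each array.

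Signs turned for Clec4f on vehicle with median scaling (-0.16), and for Timd4 over the 4 samples with normexp (-0.0043) and median scaling (-0.14) and on vehicle with median scaling (-0.045). Leaving out each array, Timd4 ranged from -0.013 (without KO vehicle b) to 0.14 over the 4 samples and from -0.15 to 0.056 (without WT ENU b) after ENU, where it was also above 0 without KO ENU a. The cause was not tested. Over all genes, 3062 rose and 2778 fell, against 2737 and 4884 with median scaling, 2399 and 4172 with normexp, and 2159 and 3732 with probes above background on all arrays. Median scaling moved the median of all genes from -0.14 and -0.10 to -0.37 and -0.28. With 8 arrays unmerged, other Kupffer cell genes went from 4 higher and 1 lower to 10 and 5, sinusoidal endothelial markers from 0 and 2 to 5 and 7, and stellate cell markers from 4 and 0 to 8 and 2.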
